A study of Mus musculus with 9 samples.

Results

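Genes of 7 cathepsins, the lysozyme gene Lyz2, the macrosialin gene Cd68 and the late endosome gene Litaf were followed across regulatory T cells (Tregs) of 3 organs. These 10 genes are the rows of the deposited table of 49510 genes that carry those names. Ctss and Litaf were chosen by their measured heart levels, so their heart values are given as a description with no test. All 10 passed the filter on low counts. The animals were Foxp3-GFP mice, in which a green fluorescent protein reports Foxp3, the transcription factor of the Treg lineage. They were 8 weeks old and had undergone ischemia/reperfusion (I/R) injury, in which blood flow to part of the heart is blocked and then restored, 3 days earlier. All 9 libraries share this strain, age and injury and differ in organ, with 3 from the injured heart, 3 from the spleen and 3 from the mediastinal lymph node (MLN), the node that drains the heart. Cells were enriched on magnetic beads and then sorted by flow cytometry, and the small RNA yields were amplified with a SMARTer Ultra Low Input kit. The labels do not say whether libraries of an organ came from separate mice or from pools, so p-values measure the spread between these libraries, which may be technical.

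Cathepsins are proteases of the endosome and lysosome that are made as inactive precursors and matured at low pH. They break down proteins that reach the lysosome, and in antigen-presenting cells some of them trim the invariant chain from MHC class II molecules. Lysozyme cleaves bacterial cell walls, and the lysozyme M gene, the macrosialin gene and several cathepsins are highly expressed in macrophages and other phagocytes.

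Library totals ran from 156194012 to 267520538 counts, and 14562 to 18570 genes were detected per library. Spleen library 3, MLN library 3 and heart library 2 stood apart from the others of their organ, with 1.198% to 1.555% of counts on B2m, a subunit of MHC class I, against 2.385% to 2.714% in the other 6. The labelled cell type was checked on Foxp3 itself, which stood at 31.2, 32.6 and 187 CPM (counts per 1000000 counts of the scaled library) in the spleen libraries and 42.4, 41.8 and 46.3 in the MLN libraries. In the heart it stood at 8.77, 38.0 and 0.240 CPM, so Foxp3 was close to absent from heart library 3. A list of 9 T cell and Treg genes held 0.163% to 0.220% of heart counts, against 0.412% to 0.509% in spleen and 0.438% to 0.577% in MLN. A list of 22 macrophage and monocyte genes held 0.751%, 0.649% and 0.847% of counts in the heart libraries, 0.104%, 0.139% and 0.233% in spleen and 0.0303%, 0.0393% and 0.0586% in MLN. Its most abundant member was Tyrobp, a signalling adaptor of myeloid and natural killer cells, at 2359 CPM in heart, 381.3 in spleen and 109.6 in MLN on average. Of the 22 genes, only Trem2 had no count in spleen, only Trem2 and Cd163 had none in MLN, and all were counted in heart. The other genes of the list were thus counted in the lymphoid organs too. In bulk RNA, fewer cells of a type and less RNA per cell cannot be told apart, and the part that these markers take in the results on the 10 genes was not tested.

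Promoter windows, from 250 bases before to 50 bases after the annotated start, were found for 8 of the 10 genes in RefSeq (GRCm38.p6, the assembly of mm10). They were searched on both strands for CACGTG, the core that TFEB and other E-box factors bind, for its longer form TCACGTGA, for GAGGAAGT, a form bound by the myeloid and B cell factor PU.1, and for TGANTCA, the AP-1 site. The core lay in the windows of Ctsd and Ctsl and in 7.15% of all 32851 windows, and the longer form, which contains the core, lay in Ctsd and in 0.974%. The PU.1 form lay in Ctss and Ctsc and in 3.20% of windows, and the AP-1 site lay in Cd68 and in 7.81%. A match describes the letters and does not show that a factor binds. The stretches that hold them are printed because they show how the promoters of the genes compared here differ. All run 5′ to 3′ on the gene's strand, with the matches in capitals. Positions are chr7:142387907-142388077 (minus strand) for Ctsd, chr13:64370731-64370770 (minus) for Ctsl, chr11:69666171-69666339 (minus) for Cd68, chr7:88277914-88277961 (plus) for Ctsc and chr3:95526726-95526795 (plus) for Ctss.
Ctsd: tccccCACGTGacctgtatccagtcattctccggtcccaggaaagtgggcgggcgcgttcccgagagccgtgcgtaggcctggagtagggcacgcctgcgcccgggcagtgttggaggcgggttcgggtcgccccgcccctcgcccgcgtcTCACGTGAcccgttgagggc
Ctsl: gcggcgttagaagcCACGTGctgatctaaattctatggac
Cd68: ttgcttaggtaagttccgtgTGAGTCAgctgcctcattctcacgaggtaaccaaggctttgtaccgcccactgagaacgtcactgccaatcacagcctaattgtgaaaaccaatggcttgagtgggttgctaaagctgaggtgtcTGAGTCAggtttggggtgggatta
Ctsc: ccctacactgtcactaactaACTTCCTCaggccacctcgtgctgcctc
Ctss: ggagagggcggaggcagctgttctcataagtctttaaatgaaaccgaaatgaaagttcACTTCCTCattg
The 2 matches of Ctsd begin 245 and 98 bases before the RefSeq start, and both matches of Cd68, at 149 and 24 bases before it, read the same. The GENCODE vM21 gene models, whose coordinates are given for each gene, can begin elsewhere. That of Ctsd begins 211 bases and that of Ctsl 370 bases upstream of the RefSeq start, so the printed Ctsl stretch and the nearer match of Ctsd lie inside those models. The model of Litaf begins 73036 bases upstream of its RefSeq start, so its window, which held no match, lies inside that model. The starts of Ctss and Ctsc are the same in both annotations.

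Heart Treg libraries held more RNA of the 10 genes together than either lymphoid organ. Their summed share of all counts was 2.61%, 2.14% and 2.64% in the heart libraries, against 0.838%, 0.788% and 1.07% in spleen and 0.796%, 0.835% and 0.776% in MLN. Ctss held the largest part of the sum in every library, and Ctss and Litaf were chosen for their heart level. The other 8 genes held 0.811% ± 0.05 of heart counts (SD, n = 3), 0.274% ± 0.146 in spleen and 0.136% ± 0.0336 in MLN. The heart libraries thus lay above all 6 lymphoid libraries with and without the chosen pair.

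**Figure D1:**
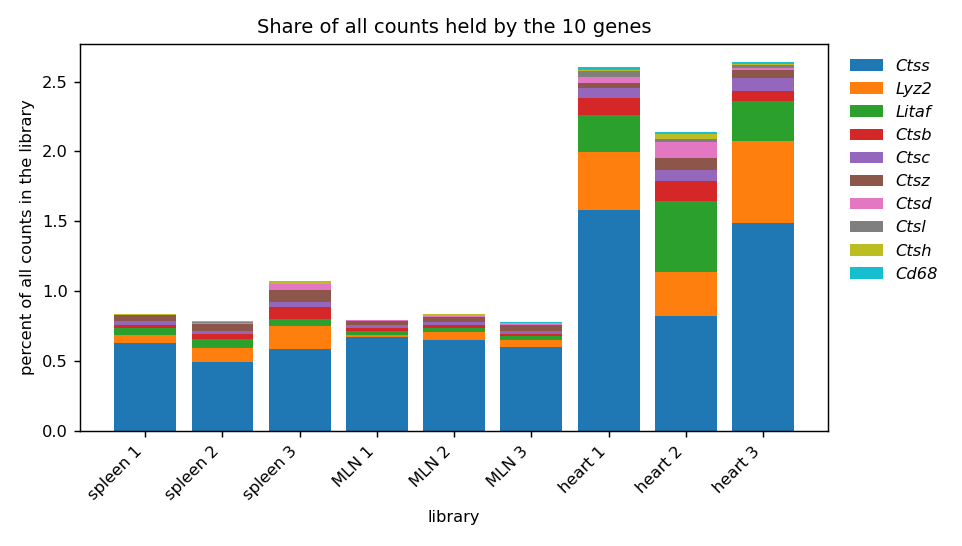
Stacked bars of the percent of all counts in each of the 9 libraries that fell on each of the 10 genes, from 0. The heart bars reach 2.14% to 2.64% and the tallest lymphoid bar, spleen library 3, reaches 1.07%; Ctss fills most of every lymphoid bar.

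Ctss encodes cathepsin S, the cysteine protease that removes the last part of the invariant chain in B cells, dendritic cells and macrophages and that stays active near neutral pH. The gene lies at chr3:95526786-95556403 on the plus strand (mm10). Its level was 6329, 4882 and 4717 CPM in spleen libraries 1 to 3, 6869, 6425 and 5149 CPM in MLN and 21080, 7443 and 17980 CPM in heart. Every heart library was above every lymphoid one, but heart library 2 was only 1.08 times the highest MLN library, and the other 2 heart libraries were far above it. Mean levels were 15500 ± 7148 CPM in heart (SD, n = 3), 5309 ± 887.2 in spleen and 6148 ± 892.7 in MLN. The heart mean was 2.92 times the spleen mean and 2.52 times the MLN mean. B cells also express Ctss, and a list of 6 B cell genes held 0.108% to 0.122% of counts in spleen and at most 0.00122% in heart. In MLN libraries 1 to 3 that list held 0.0596%, 0.0327% and 0.219%. The part of B cells in the Ctss levels was not tested. Unlike the other 9 genes, Ctss was already among the most abundant RNAs of the lymphoid libraries. Its mean ranked 8 in spleen and 5 in MLN among all genes by CPM, and it ranked 2 in heart.

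Ctsl encodes cathepsin L, which does the invariant chain step of cathepsin S in the thymic cortex and is a general lysosomal endopeptidase elsewhere. It lies at chr13:64359337-64370890 on the minus strand. Its level was 11.97, 15.79 and 21.24 CPM in the spleen libraries, 4.158, 11.07 and 18.58 CPM in MLN and 617.4, 147.6 and 246.0 CPM in heart. The lowest heart library was several times the highest lymphoid one, although the heart libraries themselves spread 4.18-fold. The mean was 337 ± 247.8 CPM in heart (SD, n = 3), 16.33 ± 4.661 in spleen and 11.27 ± 7.214 in MLN. The fitted log2 difference was 4.37 (SE 0.76, adjusted p = 0.0469) from spleen and 4.90 (SE 0.78, adjusted p = 0.0327) from MLN, so Ctsl was higher in heart in both comparisons. The 9 placental relatives of Ctsl that lie in the same gene cluster had no count in any library. Another gene model, Gm49230, shares 5.30% of the 50-base stretches of Ctsl, all other genes together share 6.46%, and an antisense gene overlaps 1742 of its exonic bases. Whether the counting used strand is not given in the sources used here, so reads of such overlaps cannot be told apart.

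Ctsb encodes cathepsin B, an abundant cysteine protease that acts both as endopeptidase and from the carboxyl end of its substrates. The gene lies at chr14:63122462-63145923 on the plus strand. Its level was 234.1, 295.1 and 665.2 CPM in the spleen libraries, 196.3, 219.9 and 155.8 CPM in MLN and 1615, 1299 and 875.7 CPM in heart. The heart libraries did not overlap those of either organ, and spleen library 3 came closest to them. The log2 difference was 2.73 from MLN (SE 0.48, adjusted p = 0.0403), which passed the test. From spleen it was 1.67 (SE 0.46, adjusted p = 0.129), which did not. Ctsb shares 774 exonic bases with Fdft1 on the opposite strand, a gene with 104771 counts over all libraries.

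Ctsc encodes cathepsin C, or dipeptidyl peptidase I, which activates granzymes in cytotoxic lymphocytes and the serine proteases of neutrophils and mast cells. It lies at chr7:88278085-88310888 on the plus strand. Its level was 306.8, 242.5 and 272.4 CPM in the spleen libraries, 237.1, 224.4 and 134.5 CPM in MLN and 980.1, 716.8 and 1122 CPM in heart. Heart and lymphoid libraries did not overlap, and the spread within heart, 1.57-fold from lowest to highest, was among the smallest of the 10 genes. The log2 difference from MLN was 2.24 (SE 0.34, adjusted p = 0.0300). The difference from spleen was 1.78 (SE 0.34, adjusted p = 0.0602) and missed the threshold.

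Ctsh and Ctsz encode the aminopeptidase cathepsin H and the carboxypeptidase cathepsin Z. They lie at chr9:90054152-90076089 on the plus strand and at chr2:174427493-174439039 on the minus strand. Ctsh stood at 51.03, 100.1 and 141.9 CPM in the spleen libraries, 50.09, 112.4 and 80.58 CPM in MLN and 89.42, 357.2 and 116.7 CPM in heart. Heart library 2 alone was high, and the other 2 heart libraries lay within the range of the spleen. Ctsz stood at 387.3, 508.8 and 695.2 CPM in spleen, 285.5, 375.4 and 370.2 CPM in MLN and 528.8, 800.8 and 672.6 CPM in heart. Its heart and spleen ranges overlapped, and its heart libraries were all above those of MLN. Neither gene was called with edgeR. The log2 difference of Ctsh was 0.94 (SE 0.63, adjusted p = 0.660) from spleen and 1.21 (SE 0.63, adjusted p = 0.416) from MLN. That of Ctsz was 0.33 (SE 0.33, adjusted p = 0.848) from spleen and 0.96 (SE 0.33, adjusted p = 0.199) from MLN. DESeq2 called Ctsz higher in heart than in MLN (adjusted p = 0.0239), beside 9.88% of the genes it tested.

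Ctsd encodes cathepsin D, the main aspartic protease of the lysosome. The gene lies at chr7:142375911-142388038 on the minus strand, and its RefSeq window carries both E-box matches printed above. Its level was 38.83, 83.02 and 357.6 CPM in the spleen libraries, 32.6, 34.57 and 71.95 CPM in MLN and 524.3, 1029 and 217.8 CPM in heart. Spleen library 3 was above heart library 3, so heart and spleen overlapped, while all heart libraries were above all MLN libraries. The spread from lowest to highest was 4.73-fold in heart and 9.21-fold in spleen, the widest of the 10 genes in both organs. The log2 difference was 1.89 (SE 0.88, adjusted p = 0.400) from spleen and 3.67 (SE 0.94, adjusted p = 0.0978) from MLN, and neither was called with edgeR over all 9 libraries. Against MLN, Ctsd was called higher with DESeq2 (adjusted p = 0.000802), beside the same 9.88% of genes, with limma-voom (adjusted p = 0.0428), beside 6.47%, and with edgeR on the 2 organs alone (adjusted p = 0.0442), beside 3.16%. Another gene model, Gm49369, overlaps 808 of its exonic bases on the same strand and had no count, so the Ctsd counts are uncertain where reads fit both models.

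Lyz2 encodes lysozyme M, the lysozyme of macrophages and neutrophils. It lies at chr10:117277331-117282321 on the minus strand. Its level was 529, 969.2 and 1363 CPM in the spleen libraries, 193.9, 620.1 and 435.7 CPM in MLN and 5589, 2802 and 7107 CPM in heart. All heart libraries were above all lymphoid ones. The heart mean of 5166 ± 2184 CPM (SD, n = 3) was 5.42 times the spleen mean and 12.4 times the MLN mean. The log2 difference from MLN was 3.63 (SE 0.62, adjusted p = 0.0383), and that from spleen, 2.44 (SE 0.59, adjusted p = 0.0958), missed the threshold. Lyz1, its related neighbour of Paneth cells, shares 15.4% of the 50-base stretches and 1.97% of the 100-base stretches of Lyz2. It had 0, 0 and 665 counts in spleen, 0, 0 and 12 in MLN and 1256, 2866 and 69 in heart, at most 0.407% of the counts of the pair.

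Cd68 encodes macrosialin, a heavily glycosylated membrane protein of late endosomes and lysosomes that is widely used as a macrophage marker. It lies at chr11:69664213-69666153 on the minus strand. Its level was 13.61, 25.05 and 19.98 CPM in the spleen libraries, 3.986, 4.894 and 2.81 CPM in MLN and 282.5, 101.1 and 108.2 CPM in heart. The 3 organs formed separate ranges, with heart highest and MLN lowest. The log2 difference was 3.07 (SE 0.54, adjusted p = 0.0492) from spleen and 5.39 (SE 0.61, adjusted p = 0.0187) from MLN, so Cd68 was higher in heart in both comparisons. The heart mean was 42.1 times the MLN mean.

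Litaf encodes a small membrane protein of late endosomes and lysosomes that binds sorting complexes and was first named as a factor induced by lipopolysaccharide. It lies at chr16:10959275-11066157 on the minus strand. Its level was 509, 670.4 and 407.4 CPM in the spleen libraries, 297.3, 259.7 and 231.8 CPM in MLN and 3483, 4616 and 3475 CPM in heart. The heart libraries lay closest together of all 10 genes, with a spread of 1.33-fold, and the 3 organs formed separate ranges. The heart mean of 3858 ± 656.5 CPM (SD, n = 3) was 7.29 times the spleen mean and 14.7 times the MLN mean. Heart library 2, which held the least Ctss and Lyz2 of the heart libraries, held the most Litaf.

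**Figure D2:**
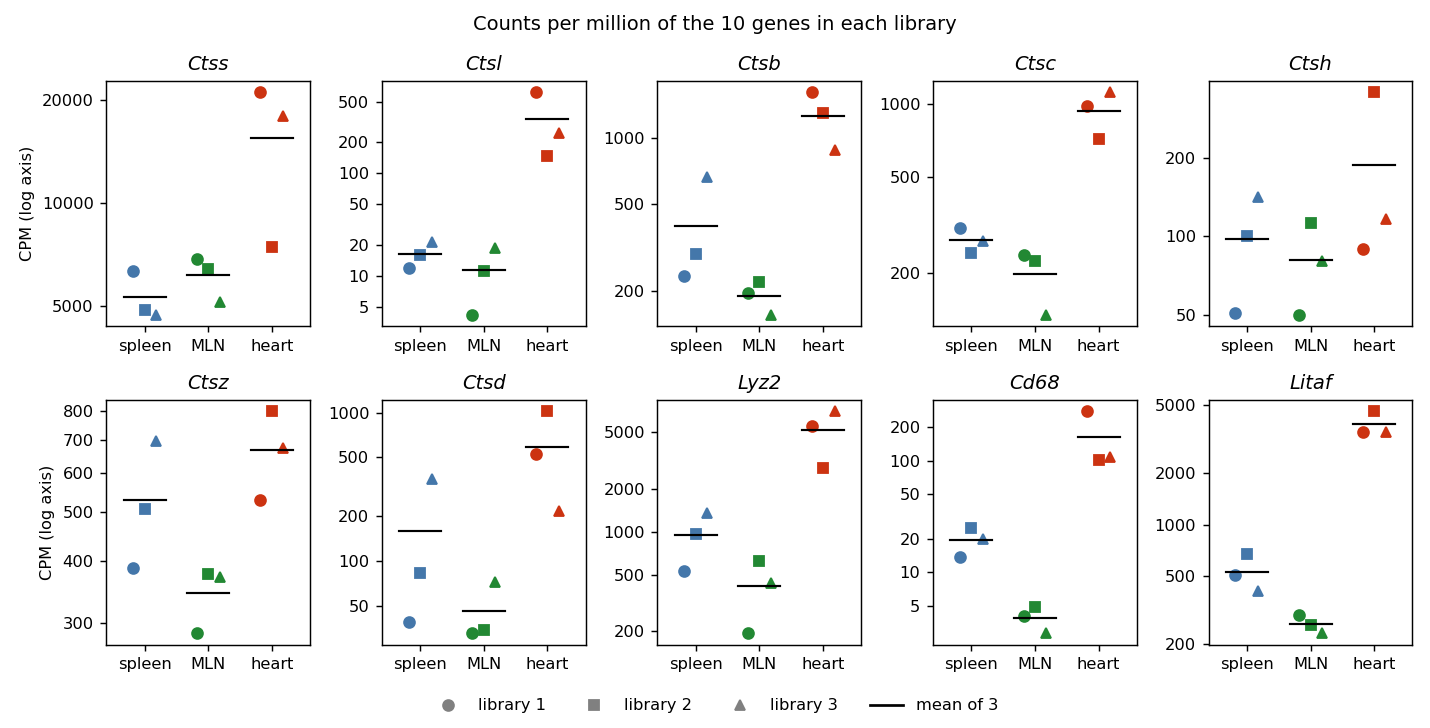
CPM (log axes, which differ between panels) of each of the 10 genes in every library, with the mean of the 3 libraries of an organ as a bar. Heart libraries are separate from all lymphoid libraries for Ctss, Ctsl, Ctsb, Ctsc, Lyz2, Cd68 and Litaf, and overlap spleen for Ctsh, Ctsz and Ctsd.

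Against spleen, 2 of the 8 tested genes were called higher in heart at an adjusted p below 0.05, Ctsl and Cd68, beside 0.614% of the 16609 genes tested. Heart libraries were all above the spleen libraries for 5 of the 8, beside 12.4% of all genes. The median log2 difference of the 8 was 1.83, beside 0.02 over all genes. Against MLN, 5 of the 8 were called higher, Ctsb, Ctsc, Ctsl, Lyz2 and Cd68, beside 1.10% of all genes. Heart libraries were above all MLN libraries for 7 of the 8, all but Ctsh, beside 14.9%. The median of the 8 was 3.18, beside 0.12 over all genes. All 3 heart libraries were above all 6 lymphoid libraries for 5 of the 8, beside 9.48% of all genes; this also held for the chosen pair, from which nothing is read. The 2 heart comparisons share the heart libraries. The calls rested on few libraries. Against spleen, Cd68 lost its call when any single library was left out, and Ctsl did so except without MLN library 1. Over all genes, 131 were called against spleen with all libraries and 0 to 122 with 1 left out. Against MLN, none of the 5 calls was left without MLN library 1, 2 or 3 or without heart library 3. Only Cd68 was left without heart library 1, and Ctsc, Ctsl and Cd68 were left without heart library 2 or spleen library 2. Calls over all genes against MLN fell as well. They went from 230 to 0, 39 and 36 without MLN libraries 1, 2 and 3, and to 0 without heart library 3. They were 24 and 59 without heart libraries 1 and 2 and 195 without spleen library 2. Without all 3 libraries that stood apart, 0 of the 8 were called in either comparison. Over all genes, that fit called only 3 against spleen and 4 against MLN. The log2 difference against spleen stayed at 4.96 for Ctsl and 3.34 for Cd68 in it.

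**Figure D3:**
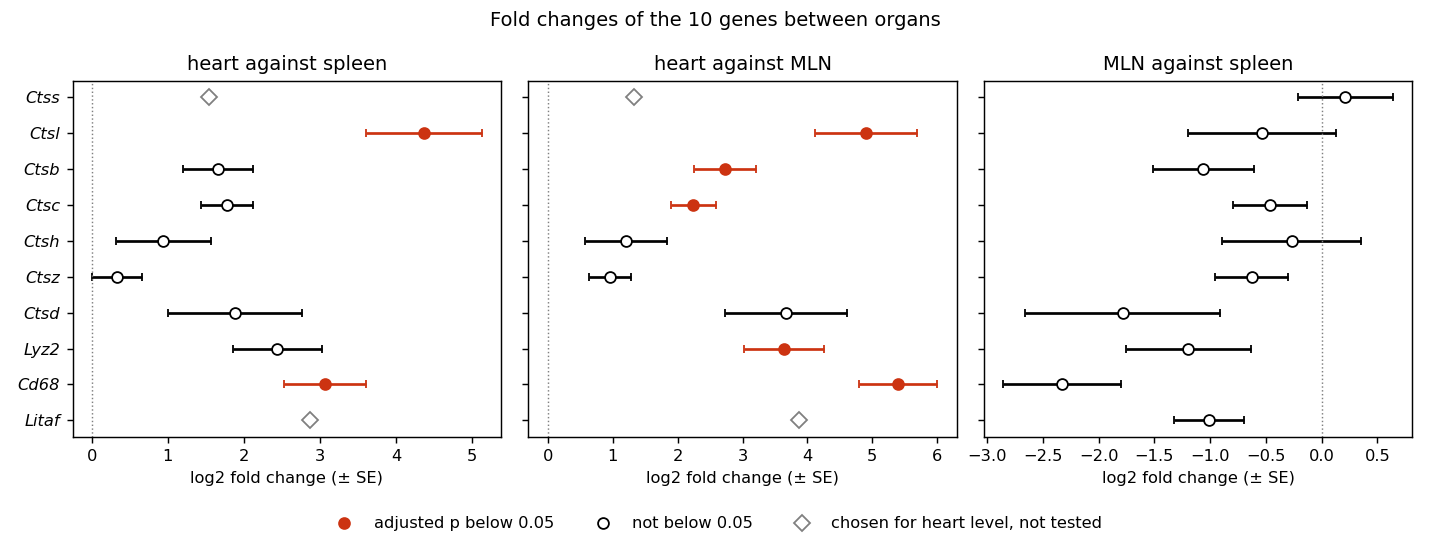
Fitted log2 fold changes with their standard errors for the 10 genes in the 3 comparisons; filled points have an adjusted p below 0.05 and diamonds mark Ctss and Litaf, which were not tested against heart. Filled points are Ctsl and Cd68 against spleen and Ctsl, Ctsb, Ctsc, Lyz2 and Cd68 against MLN, and none in the comparison of MLN with spleen.

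Between the lymphoid organs, none of the 10 genes was called in MLN against spleen, beside 0% of all genes with edgeR. At an unadjusted p below 0.05, 3 of the 10 differed in either direction, Cd68, Litaf and Ctsb, beside 5.75% of all genes. All 3 were lower in MLN, and 2.40% of all genes were higher in MLN at this threshold. The log2 difference was -2.33 for Cd68 (SE 0.53, adjusted p = 0.790), -1.01 for Litaf (SE 0.31, adjusted p = 0.839) and -1.06 for Ctsb (SE 0.45, adjusted p = 0.839). MLN libraries were all below spleen libraries for 5 of the 10, Ctsb, Ctsc, Ctsz, Cd68 and Litaf, beside 4.56% of all genes. DESeq2 called 785 genes in this comparison in either direction, and Cd68 and Litaf were 2 of the 415 lower in MLN, beside 2.63% of the genes it tested. Fitted values were below 0 for 9 of the 10, and Ctss alone was above it at 0.21 (SE 0.43, adjusted p = 1). Of the macrophage list, 21 of 22 genes also had values below 0, with a median of -1.68 and 0 called, and the part of these cells in the lower MLN values was not tested.

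The heart libraries did not share 1 order. Heart library 1 was highest for Ctss, Ctsb, Ctsl and Cd68, heart library 2 for Ctsd, Ctsh, Ctsz and Litaf, and heart library 3 for Ctsc and Lyz2. Spleen library 3 was the highest of the spleen for Ctsb, Ctsd, Ctsh, Ctsl, Ctsz and Lyz2. Other cell type lists also differed between heart libraries. Neutrophil genes held 0.0583%, 0.0718% and 0.320% of counts in heart libraries 1 to 3. Mast cell genes held 0.617%, 0.557% and 0.00104%, and fibroblast genes 1.43%, 0.271% and 0.364%. Dendritic cell genes held at most 0.0184%, endothelial genes 0.0268% and cardiomyocyte genes 0.0330% of any heart library. The part of these markers in the values was not tested.

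**Figure D4:**
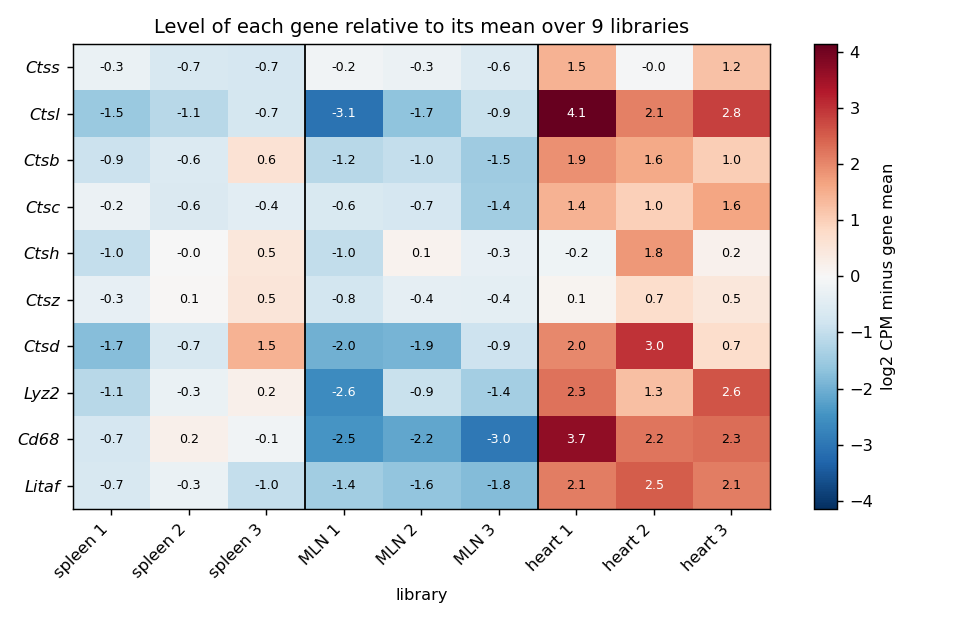
Log2 CPM of each gene minus its own mean over the 9 libraries (red above, blue below), one column a library. Ctsl has the widest span, lowest in MLN library 1 and highest in heart library 1, and Ctsz the narrowest.

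Levels per kilobase (kb) used the merged exons of all annotated transcripts of a gene, 1358 bases for Ctss and 6489 for Ctsl. A gene read mainly from a shorter transcript is understated, so the order of the genes depends on this length. On this scale Ctss was the most abundant of the 10 on average in each organ. It stood at 3910 CPM per kb in spleen, 4527 in MLN and 11410 in heart. Lyz2 followed with 724.8, 316.6 and 3926 CPM per kb. In heart the means then fell from Litaf (748.3) to Ctsz (463.1), Ctsd (251.2), Ctsb (208.8), Ctsc (161.8), Cd68 (130.4), Ctsl (51.93) and Ctsh (41.74). The heart libraries of Ctss, Lyz2, Litaf and Ctsz did not overlap between neighbours in this order, while from Ctsz down every pair of neighbours overlapped. In the lymphoid organs Ctsz followed Lyz2, at 368.1 CPM per kb in spleen and 238.5 in MLN, and Ctsl had the lowest mean, at 2.517 and 1.737. Litaf stood above Ctsz in heart only, but Litaf was chosen for its heart level, so nothing is read from this. Ctss to Ctsl, the pair that process the invariant chain, stood at a ratio of 251.1 ± 93.49 per kb in heart (SD, n = 3), 1689 ± 755.5 in spleen and 3997 ± 3451 in MLN. The size of this ratio depends on the exon lengths used, which are the same in each organ.

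The pattern over the 9 libraries was compared between genes by the root mean square (RMS) difference of their log2 CPM after each gene's own mean was removed; all values share the same libraries and depths. Among the members, Ctsh and Ctsz were closest at 0.489, followed by Ctss with Ctsc at 0.520 and Ctsb with Ctsc at 0.558. Ctsh and Ctsl were farthest apart, at 2.01. Among 7800 other genes, the ones nearest to Ctss were Dram2 (RMS difference 0.176), Atp6v1e1 (0.238), a subunit of the proton pump, and Sh3bgrl (0.261). Those nearest to Ctsb were Odc1 (0.466), Adam9 (0.498) and Skap2 (0.4997). Lyz2 was nearest to Aif1 (0.519), Fcgr3 (0.554), an Fc receptor of the macrophage list, and Sirpb1b (0.571). Cd68 was nearest to Mgst1 (0.597), Fcgr3 (0.613) and Clec12a (0.653), and Litaf to Ahnak (0.362), Ms4a4a (0.428) and Rab20 (0.476).

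Other lysosomal genes were counted by role. Over all genes, 0.789% were called against spleen and 1.38% against MLN in either direction, with median log2 differences of 0.02 and 0.12. These values stand beside this list and each pathway list below. At such shares, 0 or 1 called in a short list does not set it apart from all genes. Of 35 other acid hydrolases tested, 0 were called against spleen and 1, Lgmn, was called higher against MLN, with medians of 0.46 and 0.98. Lgmn encodes legumain, the asparaginyl endopeptidase that helps to mature cathepsins. Its mean was 2292 CPM in heart, 392.9 in spleen and 314.8 in MLN, and its log2 difference was 2.86 from MLN (adjusted p = 0.0479) and 2.54 from spleen (adjusted p = 0.0721). That call was kept in 1 of the 9 fits that left out a library, the one without spleen library 3.

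Of the 7 other cathepsins listed, 6 were tested and 0 were called in either heart comparison, with medians of 0.51 and 0.63. Ctsw, a cathepsin of cytotoxic lymphocytes, had means of 56.76 CPM in heart, 37.15 in spleen and 66.11 in MLN. Ctse, an aspartic protease of endosomes, had its lowest mean in heart, with 13.79 CPM, 66.15 in spleen and 59.52 in MLN, and was not called (adjusted p = 0.114 and 0.116). Cathepsin inhibitors had medians of 2.73 and 2.71 over 7 tested genes, with 0 called. Their most abundant member was Cst3, the secreted inhibitor cystatin C, at 1914 CPM in heart, 344.5 in spleen and 440.9 in MLN (adjusted p = 0.0592 and 0.0669). Cstb, an inhibitor inside cells, had 895.7, 135 and 174.7 CPM (adjusted p = 0.0771 and 0.0954).

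Of 19 membrane proteins of lysosomes and late endosomes, 0 were called against spleen and 1 against MLN, with medians of 0.72 and 1.05; the called gene is Gpnmb, named here after its values were seen, which had no count in MLN. Rab7, the small GTPase of late endosomes, had means of 827.2 CPM in heart, 501 in spleen and 511.5 in MLN, and Tmem192 124.3, 214.5 and 255.2 CPM. Lamp1, a main protein of the lysosome membrane, had 188.8, 146.4 and 100.4 CPM (adjusted p = 0.867 and 0.299). Cd63, a tetraspanin of late endosomes, had 303.3, 4.985 and 33.02 CPM, yet was not called (adjusted p = 0.194 and 0.429). The 18 proton pump subunits had medians of 0.73 and 0.86 with 0 called, among them Atp6v0e at 1677 CPM in heart, 718.3 in spleen and 876.3 in MLN and Atp6v1g1 at 539.3, 277.6 and 348.8 CPM.

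Delivery receptors and regulators of the lysosome, 9 genes, had medians of 0.32 and 1.17 with 0 called. M6pr, a mannose 6-phosphate receptor that carries new enzymes to the endosome, had 52.42 CPM in heart, 41.84 in spleen and 37.47 in MLN, and Gnptg, which takes part in making that tag, 35.24, 47.72 and 41.37 CPM. Tfeb, a transcription factor of lysosomal genes, was low in each organ, at 0.693 CPM in heart, 0.566 in spleen and 0.510 in MLN (adjusted p = 0.996 and 0.978). The 7 sorting partners of Litaf had medians of 0.35 and 0.82 with 0 called; Tsg101 stood at 223.6, 222.3 and 250.2 CPM and Pdcd6ip at 138.2, 111.7 and 69.39 CPM.

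The class II pathway that Ctss and Ctsl serve had medians of -0.22 against spleen and 0.38 against MLN over 10 genes, with 0 called. Cd74, the invariant chain itself, had means of 4984 CPM in heart, 7117 in spleen and 4548 in MLN (adjusted p = 0.943 and 0.976), and the MLN mean rested on MLN library 3, at 10680 CPM against 1639 and 1323 in the others. H2-Eb1, a class II chain, had 2331, 1733 and 1234 CPM. Of the macrophage list, 3 of 22 were called higher against spleen, beside 0.614% of all genes, and 7 of 22 against MLN, beside 1.10%. Its medians of 2.66 and 4.75 were above those of the 8 tested members. So were those of the neutrophil (6.49 and 11.57), fibroblast (10.02 and 11.23), mast cell (11.89 and 7.05) and endothelial (5.05 and 5.07) lists. The same held for the dendritic cell and cardiomyocyte lists, while B cell and T cell medians were below 0. Some medians rest on genes with no count in an organ. The part of these markers was not tested.

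**Figure D5:**
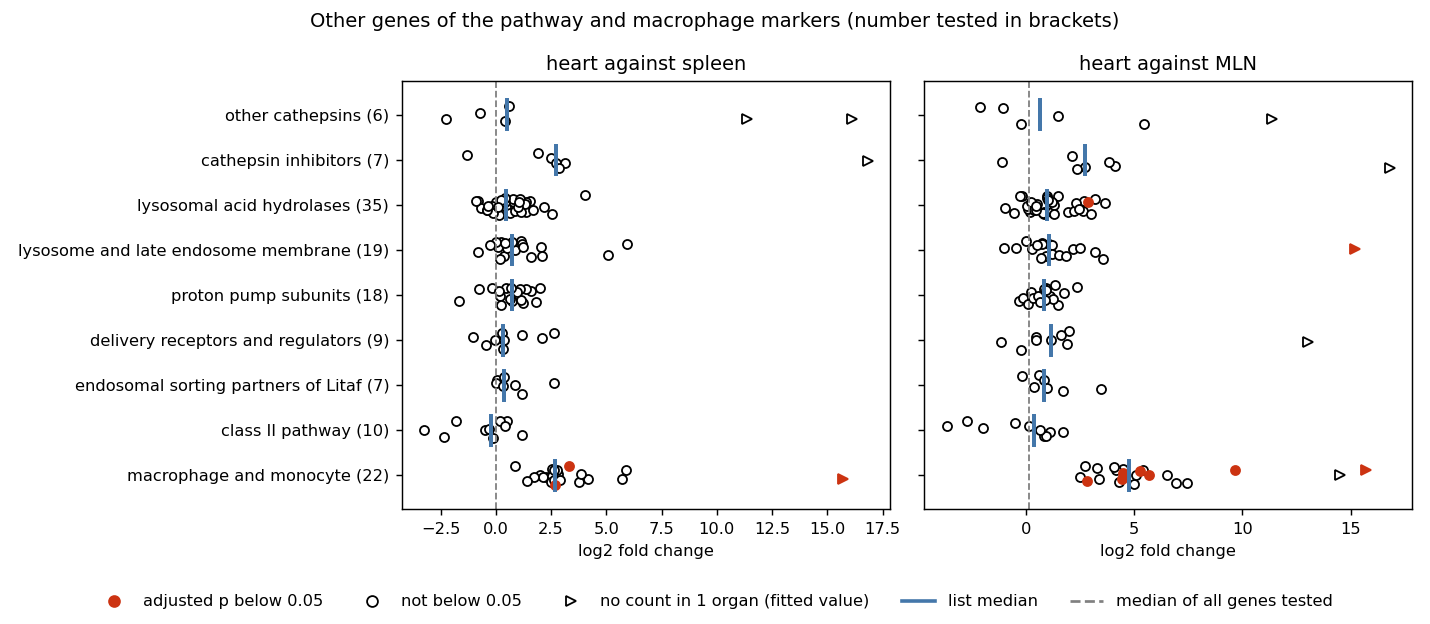
Fitted log2 fold changes of the genes of each pathway list and of the macrophage list, heart against spleen (left) and against MLN (right), with list medians as bars, the median of all tested genes as a dashed line and triangles for genes with no count in 1 organ. Filled points, called at an adjusted p below 0.05, lie in the macrophage list apart from Lgmn and Gpnmb against MLN.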

How the data were processed

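The authors deposited 1 table of read counts per gene for the 9 libraries, which are unnormalized. Per the submitters' processing notes, CASAVA 1.8.2, HISAT2 and HTSeq 0.6.0 were used with mm10; annotation and strand setting: not given in the sources used here. The deposited counts were fitted in R 4.3.3 with edgeR 4.0.16 (quasi-likelihood test, TMM scaling) over all 9 libraries, 3 an organ, on 16609 genes that passed filterByExpr (minimum count 10, minimum total 15). P-values were adjusted over all of them by Benjamini and Hochberg's method, with calls at 0.05. CPM is counts divided by the TMM-scaled library size, times 1000000. Per kilobase values use exon lengths of GENCODE vM21 (GRCm38), merged over all transcripts of a gene. That annotation held 49326 of the 49510 gene identifiers. No 2 libraries of the same organ agreed within sampling noise. Alternatives were RLE scaling, no filter, a stricter filter (10 CPM in 3 libraries), DESeq2 1.42.0, limma-voom 3.58.1, 2 organs alone, a replicate block, leaving out each library and, chosen after seeing the data, leaving out the 3 that stood apart. The 10 members, the lists and the tests were chosen with earlier results of these data known. Named genes are the 10 members, up to 4 called genes and the 2 most abundant per kb of each pathway list, Lyz1, Cst3, Lgmn, Cd74, Lamp1, Cd63 and Tfeb, the most abundant gene of a marker list, and for 5 members the 3 genes most alike; Foxp3, B2m, Trem2, Cd163 and genes that share sequence with a member are named beside these. One gene that the rule names is not reported here. The counts limit precision less than the spread between libraries does.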

Additional observations from a re-analysis of the deposited data

How the results depend on the processing

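Of 510 fold changes of the 10 genes under 17 alternatives, 508 kept their direction, and among those with a test 13 gained a call and 62 lost one. Both reversals were Ctsh in MLN against spleen, which ranged from -0.58 to 0.10 when 1 library was left out (0.10 without spleen library 3) and stood at 0.0931 without the 3 libraries that stood apart. Lgmn in MLN against spleen ranged from -0.64 to 0.31, the latter without spleen library 3. For heart against spleen, 131 genes and 2 members were called. The numbers were 210 genes and 3 members with the stricter filter, 1885 and 5 with DESeq2 and 1141 and 5 with limma-voom. They were 292 and 1 with the 2 organs alone, 118 and 0 with no filter, and 3 and 0 without the 3 libraries that stood apart. For heart against MLN, 230 genes and 5 members were called; the numbers were 2199 and 7 with DESeq2, 1332 and 6 with limma-voom, 548 and 6 with the 2 organs alone, and 4 genes and 0 members without the 3 libraries. For MLN against spleen, 0 were called, against 785 genes and 2 members with DESeq2 and 3 genes with limma-voom. Leaving out 1 library gave 0 to 122 genes and 0 to 1 members against spleen, and 0 to 249 genes and 0 to 5 members against MLN. A replicate block gave 0 genes and 0 members in each comparison. Deviations from the organ mean correlated at -0.115 to 0.098 between same-numbered libraries and at -0.121 to 0.208 between differently numbered ones. With 3 libraries an organ, such values cannot decide whether same-numbered libraries share an origin. The cause of the differences between settings was not tested.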
